A study of Caenorhabditis remanei with 28 samples.

Results

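In a heat-selected population of Caenorhabditis remanei, 4 of the 8 libraries had replicate numbers 3 to 6. In these 4, 100 genes of 25337, the members, were raised by the criteria given below. Levels are given in CPM, the counts of a gene scaled to the same total of gene counts in each library. The members were chosen by these values in the heat and control libraries. A gene was a member when its lowest level in heat replicates 3 to 6 exceeded its highest level in heat replicates 1, 2, 7 and 8. Its mean over heat replicates 3 to 6 also had to reach at least 5 CPM, at least 2 times the mean of the other heat libraries and at least 2 times the control mean. Of the 22573 genes with at least 1 count, 545 had all of heat replicates 3 to 6 above all other heat libraries. Of these, 408 reached the minimum level, 144 also reached the first ratio and 100 reached both ratios. The same criteria turned round, for genes lower in heat replicates 3 to 6, were met by 29 genes. The levels in heat and their difference from control chose the members and are given as a description, with no test. Of the control libraries the criteria used the mean, and not how the libraries divide.

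Caenorhabditis remanei is a nematode whose sexes are male and female. Strain PX443 served as ancestor (n = 6, replicates 3 to 8), and a control-selected (n = 8), a heat-selected (n = 8) and an oxidative-selected population (n = 6, replicates 1 to 6) were derived from it. Poly-A RNA was sequenced from pools of about 100000 larvae of the first stage, L1. All worms were kept at 20 °C on Escherichia coli OP50, the embryos were freed by bleaching, and the larvae hatched in buffer without food over 20 h and passed a filter of 20 µm. The series design gives 20 °C for all populations. The protocol also names 30 °C as an incubation temperature, and the heat and oxidative libraries, unlike the others, have none in their names. Each regime was 1 population, so drift and selection cannot be told apart. Whether replicate libraries stem from different cultures is not stated, so that a p-value here reflects how libraries vary, which may be technical.

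Nematode larvae that hatch without food halt their development at L1 and can survive in this arrested state, with a changed metabolism and raised stress resistance. Heat and oxidants each set off programmes of their own, heat mainly through chaperones and oxidants mainly through detoxifying enzymes. The comparison of the populations asks which genes carry a different level after selection, in larvae described as sampled without that stress. No identifier could be paired with a gene name (0 of 25337 matched a RefSeq table of the species), so the members are given by identifier and no role is assigned to any of them. For the same reason the labelled stage could not be checked against marker genes, and no count of chaperone or detoxification genes among the members can be given. In RNA from whole larvae, fewer cells of a type and less RNA per cell cannot be told apart.

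Gene counts per library ran from 1406684 to 15755610, and 3 counts corresponded to 0.190 to 2.13 CPM. Heat replicates 3 to 6 held 2277854 to 4306080 gene counts. Heat replicates 1 and 2 held fewer, 1555582 and 1406684, and replicates 7 and 8 held more, 8078381 and 9357212. Depth thus divided the heat libraries by replicate number, and its part in the members' levels was not tested. In heat replicates 3 to 6 reads fell outside annotated genes more often. The share was 31.4%, 39.1%, 25.6% and 37.3% in heat replicates 3, 4, 5 and 6, against 21.02% to 26.3% in the other heat libraries and 10.6% to 22.7% in the ancestor, control and oxidative libraries together. Heat replicate 5 thus overlapped the other heat libraries in this share, and replicates 3, 4 and 6 did not. Its part in the members' levels in heat was not tested; a slope on this share in the other populations is described with the tests.

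The 100 members took 2.16%, 1.81%, 1.81% and 2.00% of the gene counts in heat replicates 3, 4, 5 and 6. They took 0.718% and 0.842% in heat replicates 1 and 2, and 0.546% and 0.456% in heat replicates 7 and 8. All libraries of the other populations lay below heat replicates 3 to 6. The share was 0.337% to 0.808% in control libraries (median 0.686%), 0.370% to 0.864% in ancestor libraries (median 0.780%) and 1.14% to 1.24% in oxidative libraries (median 1.20%). No oxidative library overlapped an ancestor or control library. Replicates 7 and 8 had the 2 lowest shares in each population that has these numbers: 0.370% and 0.472% in the ancestor and 0.474% and 0.337% in control.

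**Figure D1:**
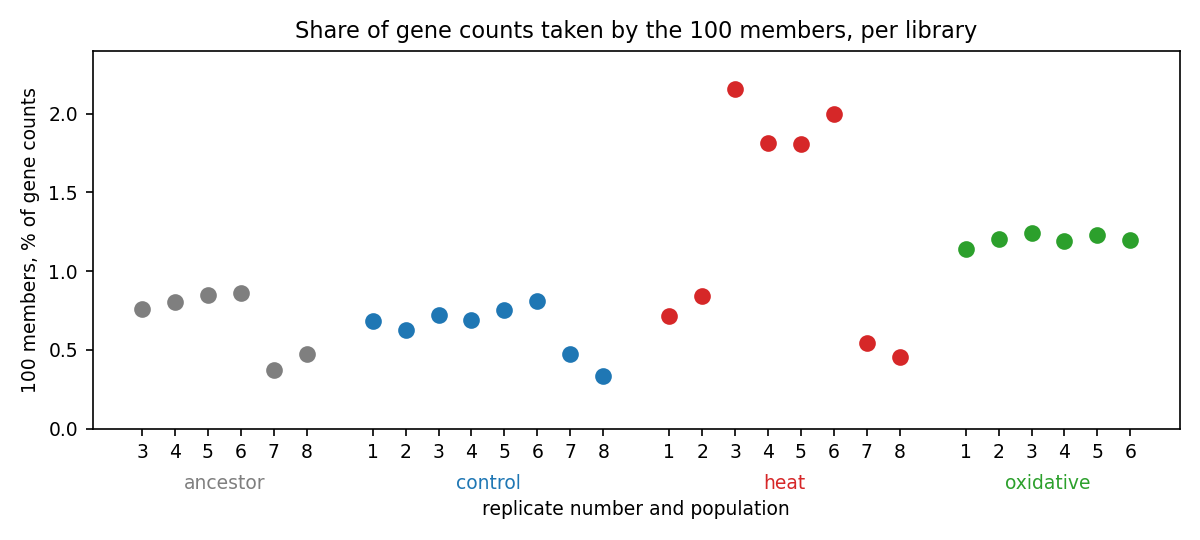
Percent of all gene counts that fell on the 100 members, one point per library, by population and replicate number. Heat replicates 3 to 6 lie between 1.81% and 2.16%, the 6 oxidative libraries between 1.14% and 1.24%, and all others at or below 0.864%.

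A few members carried most of these counts. FL81_12929 alone made up 15.3% of the members' summed CPM in heat replicates 3 to 6, the 4 leading members 48.4%, the leading 10 members 69.8% and the leading 25 members 88.2%. These shares follow counts, which depend on transcript length as well as on the number of transcripts. Without the 4 leading members the picture by population was similar. The other 96 members summed to 9006 to 12323 CPM in heat replicates 3 to 6, to 1736 to 3292 CPM in the other heat libraries and to 1211 to 3238 CPM in control. The sums were 1562 to 3184 CPM in the ancestor and 3749 to 4016 CPM in the oxidative population, again above every ancestor and control library.

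A view that weights every member alike gave a smaller place to the oxidative population. The median over the members of the log2 ratio to the control mean, with 0.5 CPM added to both, was 1.54, 1.58, 1.62 and 1.61 in heat replicates 3 to 6. It was 0.28 to 0.48 in the oxidative libraries and 0.14 to 0.47 in ancestor replicates 3 to 6, so these 2 sets overlapped. It was 0.22 and 0.16 in heat replicates 1 and 2. The lowest medians were those of replicates 7 and 8, at -0.50 and -0.49 in the ancestor, -0.61 and -0.97 in control and -0.41 and -0.36 in heat. In heat the choice of the members fixed the place of replicates 3 to 6 above the others. It did not fix the order among heat replicates 1, 2, 7 and 8, nor any order within the ancestor or control.

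**Figure D2:**
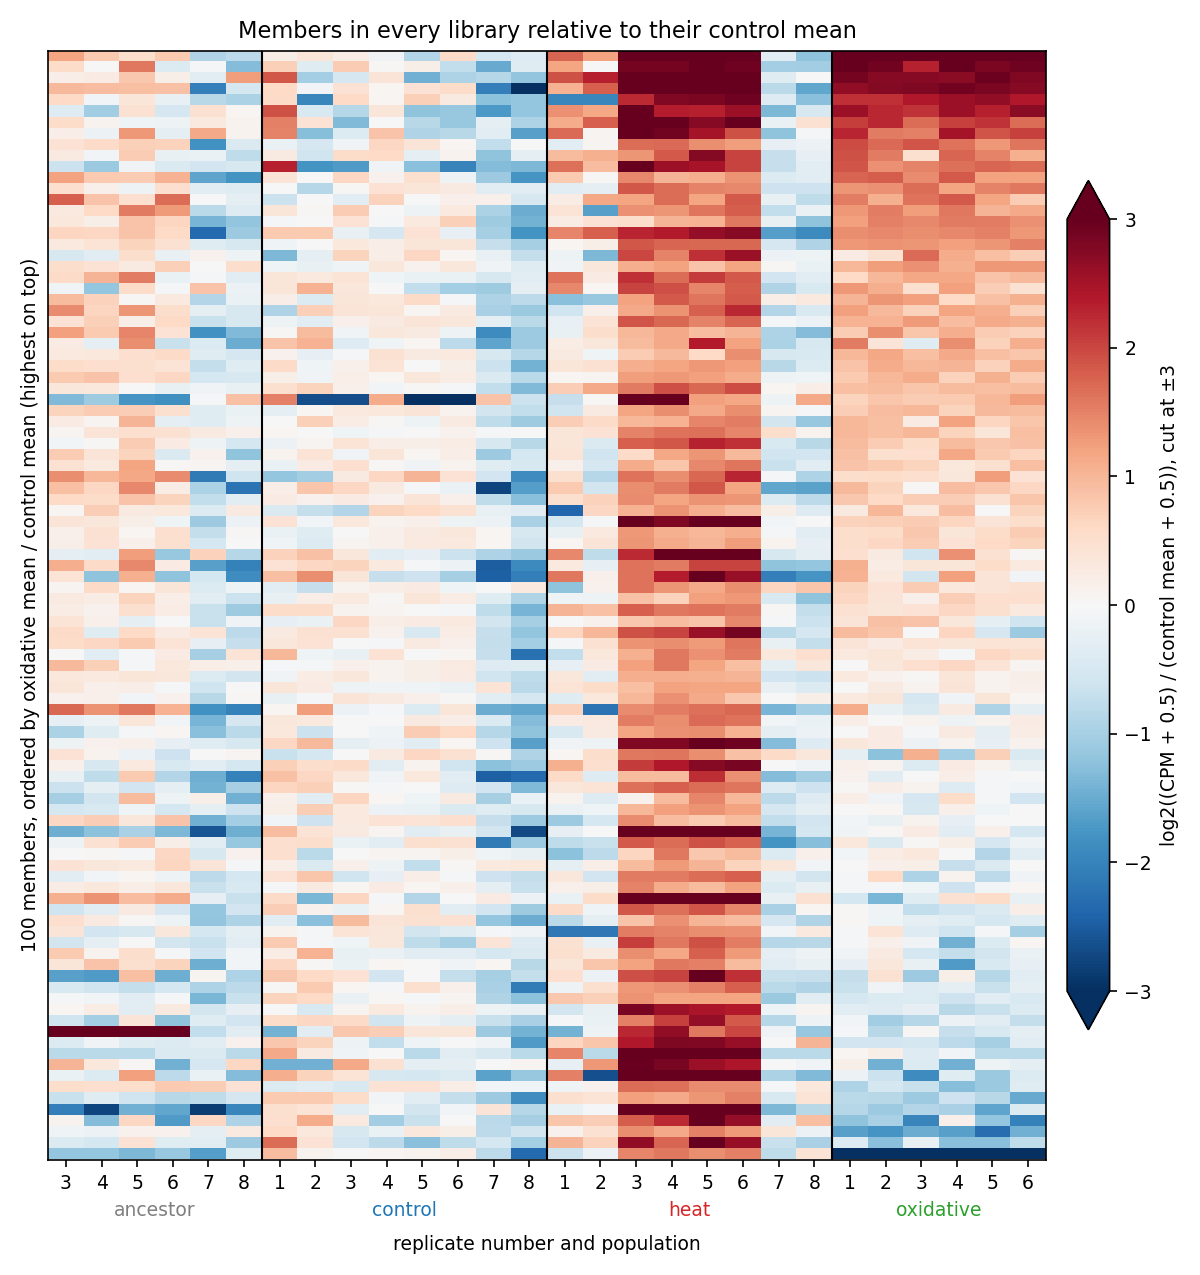
Colour gives the log2 ratio of each member's CPM to its control mean, with 0.5 CPM added to both, cut at 3 in either direction; each line is 1 of the 100 members, ordered by the ratio of the oxidative to the control mean, and each column is a library. Heat replicates 3 to 6 are above the control mean for all members, the upper lines are also high in the 6 oxidative libraries, and replicates 7 and 8 are mostly low.

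Over the 100 members, the mean of heat replicates 3 to 6 ran from 5.04 to 2979.5 CPM with a median of 41.1 CPM. It reached 100 CPM in 26 members and stayed under 10 CPM in 20. Its ratio to the mean of the other heat libraries had a median of 3.43, with quartiles of 2.43 and 6.20. This ratio was under 3 in 40 members, at least 4 in 42 and at least 10 in 14. The 4 libraries were close to each other for many members: the highest was under 1.5 times the lowest in 56 members and at least 3 times the lowest in 11. The highest of the 4 was replicate 3 in 26 members, replicate 4 in 22, replicate 5 in 28 and replicate 6 in 24, so no single library led the set. Of the 98 members that passed the filter on low counts, 61 were higher in each of heat replicates 3 to 6 than in all other 24 libraries, against 0.895% of the 11952 genes tested. By population, 91 were higher in these 4 libraries than in every control library (2.79% of all genes), 81 than in every ancestor library (3.26%) and 69 than in every oxidative library (6.11%). The choice of the members used the heat libraries and the control mean, so nothing is read from these counts.

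FL81_12929 was the member with most counts. It had 2025, 2838, 2888 and 4167 CPM in heat replicates 3, 4, 5 and 6, and 1638, 1900, 1206 and 611 CPM in heat replicates 1, 2, 7 and 8. The oxidative libraries held 3303, 3892 and 4118 CPM (lowest, median and highest), more than 3 of the 4 high heat libraries. The ancestor libraries held 529, 1661 and 2556 CPM and the control libraries 521, 1385 and 2290 CPM, so both overlapped with heat replicate 3. FL81_09899, second in counts, had 2992, 2688, 2268 and 2726 CPM in heat replicates 3 to 6 and 679 to 1082 CPM in the other heat libraries. Its oxidative libraries held 1542, 1690.4 and 1958 CPM, its ancestor libraries 511, 1004 and 1320.3 CPM and its control libraries 460.2, 815 and 1063 CPM. For this gene heat replicates 3 to 6 stood apart from all other libraries, with the oxidative ones next.

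At the limit of the criteria the separation was small. FL81_05911 was 2.01 times and FL81_22979 2.02 times the mean of the other heat libraries. FL81_05911 had 617, 551, 553 and 551 CPM in heat replicates 3 to 6, and 424, 402, 112 and 192 CPM in replicates 1, 2, 7 and 8. FL81_22979 had 39.5, 48.7, 48.1 and 48.1 CPM against 27.6, 30.6, 17.7 and 15.5 CPM. In both genes replicates 1 and 2 lay nearer to the high libraries than replicates 7 and 8 did. Just outside were FL81_09950, at 1.99 times, and FL81_17330, at 1.97 times. A higher mean in heat replicates 1 and 2 than in replicates 7 and 8 was found in 80 members. That order was not counted over all genes, so nothing is read from the 80. Heat replicates 1 and 2 were the highest heat library for 52.7% and 13.7% of all tested genes. For replicates 7 and 8 these shares were 3.25% and 5.87%. Set against heat replicates 1 and 2 alone, 82 members reached 2 times their mean, and against replicates 7 and 8 alone 98 did. The choice of the members used these same libraries, so nothing is read from the 82 and the 98.

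FL81_06793 was among the 14 members at 10 times or more. It had 190.3, 215, 195 and 174 CPM in heat replicates 3 to 6 and 5.79, 7.11, 2.35 and 4.70 CPM in heat replicates 1, 2, 7 and 8, a ratio of the means of 38.8. Its highest level was 3.31 CPM in the ancestor, 13.8 CPM in control and 8.34 CPM in the oxidative population. The next identifier in number, FL81_06792, was similar in the heat libraries, with 148, 148, 153 and 134 CPM in heat replicates 3 to 6 and 2.60 to 7.11 CPM in the other heat libraries. Neither gene overlapped between heat replicates 3 to 6 and any other library. FL81_24900 had the highest ratio to the other heat libraries and few counts: 57, 60, 179 and 56 counts (15.4, 26.3, 41.6 and 21.02 CPM) in heat replicates 3 to 6. In the other heat libraries it had 3 counts in replicate 1 and 0 in replicates 2, 7 and 8, where 3 counts would be 2.13, 0.371 and 0.321 CPM. The ratio of the mean levels was 54.1, and the ratio of the pooled counts, which gives the deeper libraries more weight, was 185 with a 95% exact (Clopper-Pearson) interval of 62.8 to 901 that covers counting error only.

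**Figure D3:**
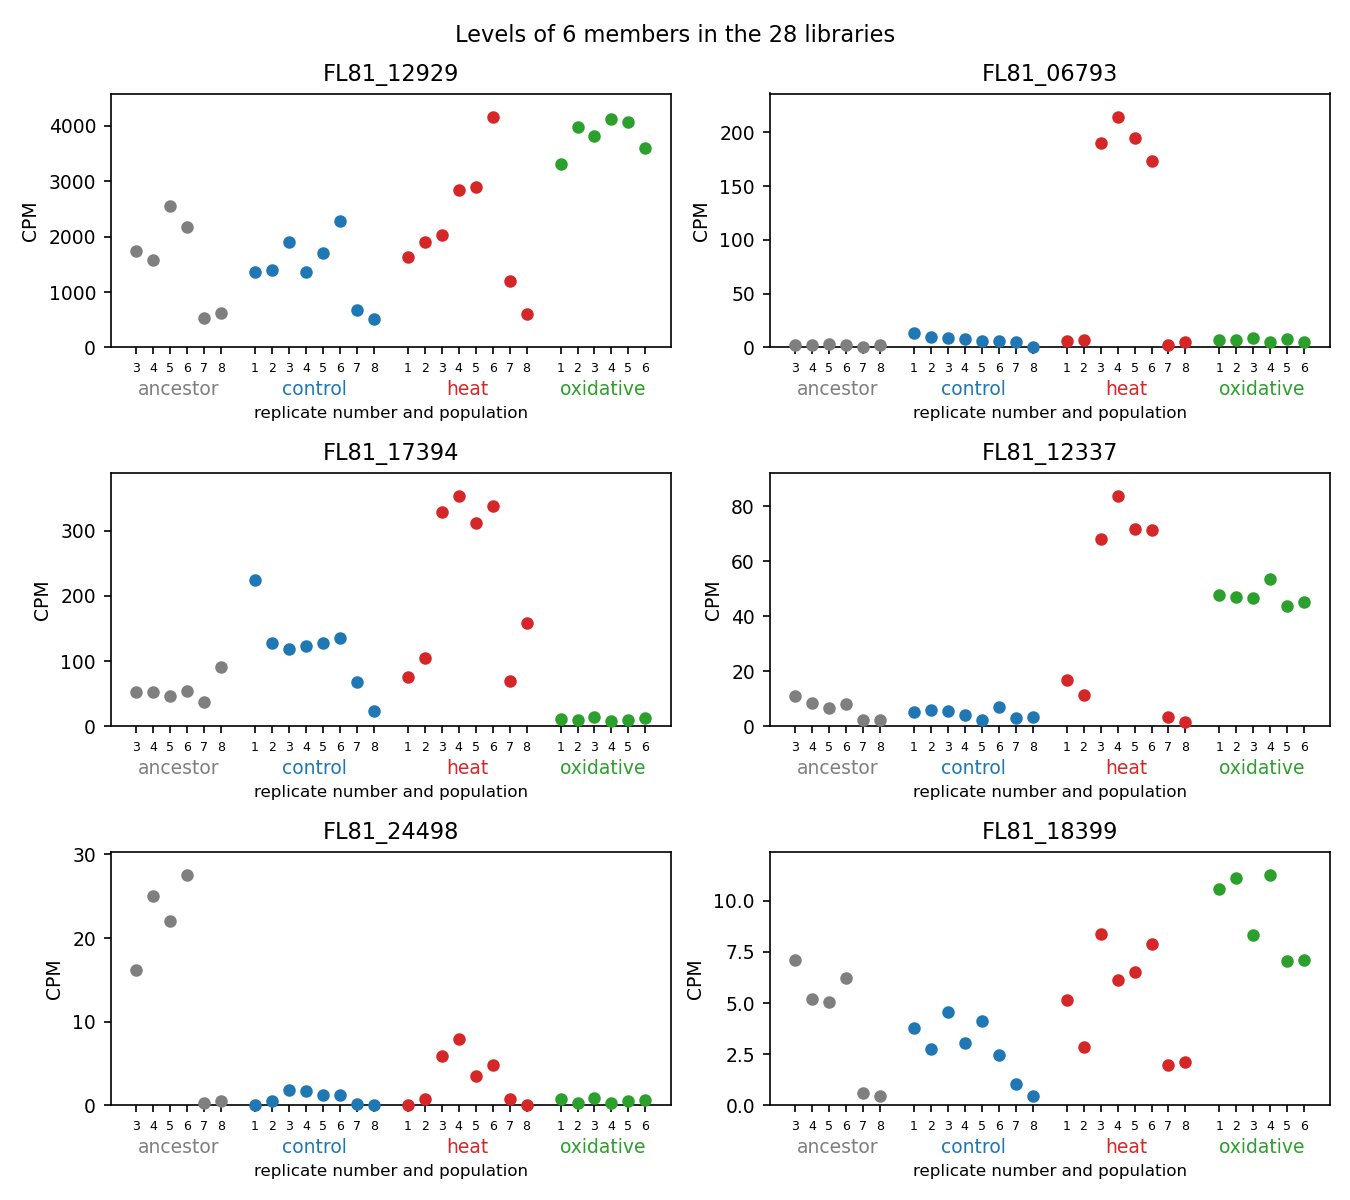
CPM of 6 members in the 28 libraries, one point per library, by population and replicate number; each panel has its own axis from 0. FL81_06793 is high in heat replicates 3 to 6 alone, FL81_12337 and FL81_18399 are also high in the oxidative libraries, FL81_24498 is highest in ancestor replicates 3 to 6, and FL81_17394 is lowest in the oxidative libraries.

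Set against the control mean, the oxidative population was raised in some members and not in others. Its mean was at least 2 times the control mean in 28 members and at least 1.5 times in 45. It lay within 1.5 times of the control mean in 43 and at or below 1/1.5 of it in 12. The control mean took part in choosing the members, which favours genes low in control. These counts were not taken over all genes, so nothing is read from them. In 5 members the oxidative mean was above that of heat replicates 3 to 6: FL81_12929, FL81_18528, FL81_23418, FL81_07490 and FL81_18399. FL81_18528 had 160 ± 16.18 CPM (SD, n = 6) in the oxidative libraries and 145 ± 14.7 CPM (SD, n = 4) in heat replicates 3 to 6, a difference within the spread of the libraries. In 5 others the oxidative mean was no more than 0.5 times the control mean: FL81_17394, FL81_06792, FL81_12485, FL81_20086 and FL81_22659.

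Neither the oxidative nor the ancestor libraries took part in choosing the members, so their difference was tested over all 11952 genes that passed the filter on low counts, 98 of them members. FL81_24900 and FL81_22659 did not pass. The filter used all 28 libraries, heat among them, so high heat levels could bring a member into this test. In the 20 libraries outside heat 91 members passed it, and FL81_24498 was not among them. With edgeR's quasi-likelihood test at a Benjamini-Hochberg adjusted p of 0.05, 7 members were higher in the oxidative population, 7.14% of those tested against 2.38% of all genes. Lower calls numbered 4, or 4.08% against 3.17% of all genes, and the other 87 members passed in neither direction. The median log2 fold change of the members was 0.21 against -0.03 over all genes tested. The ancestor has replicates 7 and 8, where the members were low, and the oxidative population has none. In a fit without replicates 7 and 8 of any population, chosen after the data were seen, the median was 0.06 against -0.02 over all genes. With replicates 3 to 6 of these 2 populations alone and a replicate block it was 0.09 against -0.01. Without a single overlap, 20 of the 98 members were higher in all oxidative than in all ancestor libraries (5.16% of all genes) and 3 were lower in all (1.56% of all genes). The result depended on the fit. When unaligned reads entered the fit as a covariate, 1 member was higher (9.05% of all genes) and 10 lower (10.2% of all genes), and the members' median turned to -0.27 against 0.07 over all genes. The fit of 28 libraries also took its spread from the heat libraries, where the choice of the members had built in a difference. What this did to the counts was not tested. With only the 2 populations in the fit, 17 of 88 members were higher (19.3% against 3.39% of all genes) and 3 lower (3.41% against 4.17% of all genes). The count of 7 also depended on single libraries. It was 3 without ancestor replicate 3, 7 or 8 or oxidative replicate 1 or 6, and 4 without ancestor replicate 4 or oxidative replicate 2, 4 or 5. With library totals as the scaling in place of TMM, 11 members were higher (4.03% of all genes) and 4 lower (2.06% of all genes), while the median of all genes moved to 0.16.

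The members that rose from ancestor to oxidative were FL81_03957, FL81_12337, FL81_04654, FL81_14356, FL81_14635, FL81_18688 and FL81_23418. FL81_12337 had 67.9, 83.9, 71.8 and 71.3 CPM in heat replicates 3, 4, 5 and 6 and 1.71 to 16.7 CPM in the other heat libraries. The oxidative libraries held 43.9, 46.9 and 53.5 CPM (lowest, median and highest), the ancestor libraries 2.23, 7.56 and 11.1 CPM and the control libraries 2.26, 4.72 and 7.16 CPM. The oxidative libraries lay between, with no overlap on either side, and the log2 difference from the ancestor was 2.69 (SE 0.59, edgeR adjusted p = 0.00519). FL81_03957 followed the same order at a lower level, with 8.66, 12.7, 13.2 and 14.3 CPM in heat replicates 3 to 6 and 8.33, 9.73 and 11.8 CPM in the oxidative libraries. The ancestor libraries held 0.508, 1.25 and 2.43 CPM, and the control libraries 0, 1.69 and 2.67 CPM. Its oxidative libraries overlapped with heat replicates 3 to 6 and not with the ancestor (log2 difference 2.79, SE 0.67, edgeR adjusted p = 0.0110). With unaligned reads added as a covariate both calls were lost, at an adjusted p of 0.0607 for FL81_12337 and 0.108 for FL81_03957. The unaligned share was 32.6% to 37.5% in the oxidative libraries. In the ancestor it was 35.0% in replicate 6 and 18.2% to 27.0% in the others, so only replicate 6 reached the oxidative range.

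FL81_17394, FL81_12485, FL81_11971 and FL81_24498 fell from ancestor to oxidative. FL81_17394 had 329, 354, 312 and 338 CPM in heat replicates 3 to 6 and 69.4 to 159 CPM in the other heat libraries. It stood at 37.1, 52.9 and 91.8 CPM in the ancestor, 23.0, 125 and 224 CPM in control, and 7.73, 10.2 and 13.9 CPM in the oxidative libraries. Every oxidative library was below every other library of the series (log2 difference from the ancestor -2.63, SE 0.44, edgeR adjusted p = 0.000411). FL81_24498, which passed the filter on low counts with the heat libraries and not without them, was the 1 member whose ancestor mean exceeded that of heat replicates 3 to 6. It had 5.96, 7.90, 3.48 and 4.88 CPM in heat replicates 3 to 6, but 16.19, 25.1, 22.1 and 27.6 CPM in ancestor replicates 3 to 6 and 0.298 and 0.571 CPM in ancestor replicates 7 and 8. Control libraries held 0 to 1.83 CPM and oxidative libraries 0.247 to 0.869 CPM (log2 difference of oxidative from ancestor -4.81, SE 0.93, edgeR adjusted p = 0.00175). The ancestor thus split by replicate number for this gene, and limma-voom did not call it (log2 difference -3.18, adjusted p = 0.203).

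**Figure D4:**
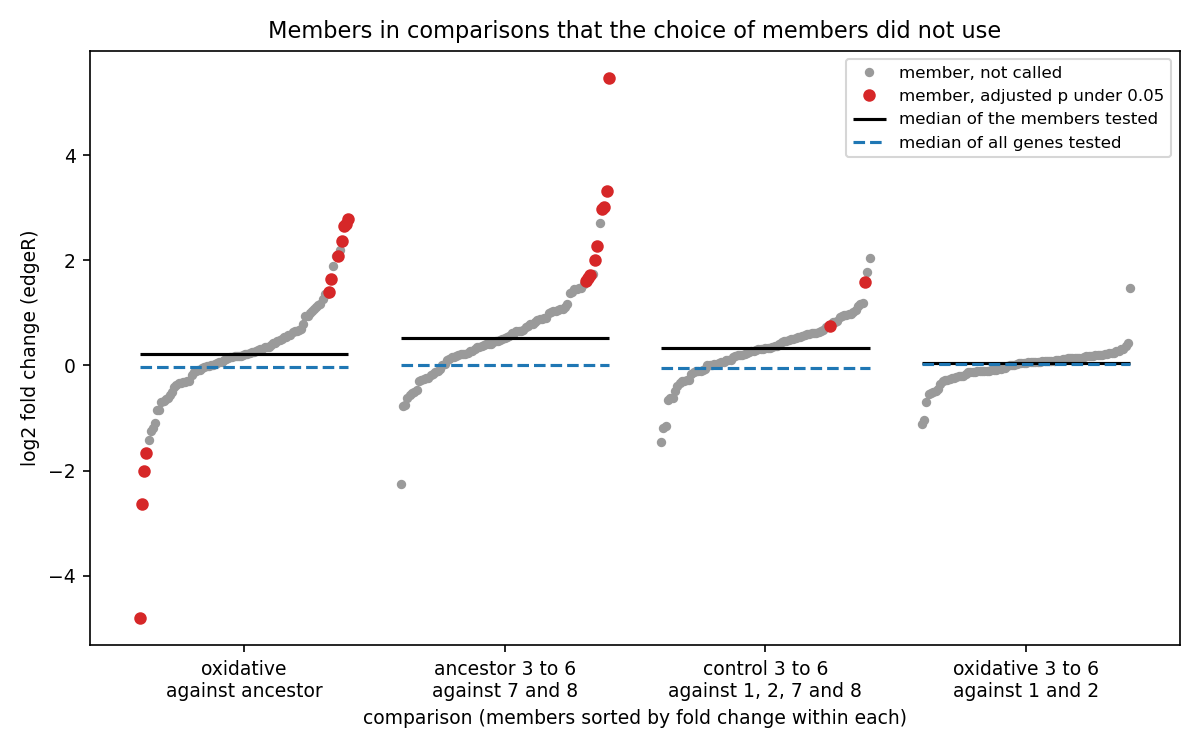
Log2 fold changes from edgeR of the members in 4 comparisons, one point per member, sorted within each comparison; red points passed an adjusted p of 0.05, and lines give the median of the members (black) and of all genes tested (blue, dashed). The members' median is 0.21 for oxidative against ancestor, 0.53 for ancestor replicates 3 to 6 against 7 and 8, 0.34 for control replicates 3 to 6 against the other control libraries and 0.06 for oxidative replicates 3 to 6 against 1 and 2.

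The same replicate numbers exist in the other populations. The labels do not say whether a number marks a shared batch of extraction, library or sequencing, so a batch and the number cannot be told apart here. The split by number was tested in a fit of the 20 libraries outside heat (11603 genes, 91 of them members). In the ancestor, replicates 3 to 6 were higher than 7 and 8 for 9 members, or 9.89% of those tested against 0.422% of all genes. No member was lower at an adjusted p of 0.05 in edgeR, DESeq2 or limma-voom, and 1 was lower in edgeR at an unadjusted p under 0.05. The median log2 difference was 0.53 against 0.01 over all genes, and 73 members were on the higher side. Of the 98 members tested in the fit of 28 libraries, 49 were higher in each of ancestor replicates 3 to 6 than in 7 and 8, against 12.7% of all genes. Without ancestor replicate 7 no member of 93 passed in edgeR (26 were higher and 2 lower at an unadjusted p under 0.05), and of all genes 2 were higher (0.0171%) and 3 lower (0.0256%). Replicate 8 then stood alone, assumed to vary like the other groups. The members' median was then 0.24 against 0.03 over all genes. Without ancestor replicate 6, 5 members passed (0.263% of all genes).

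FL81_18399 and FL81_19154 showed the largest differences between these ancestor libraries. FL81_18399 had 7.08, 5.18, 5.07 and 6.24 CPM in ancestor replicates 3 to 6 and 0.595 and 0.444 CPM in replicates 7 and 8, the last 2 from 4 and 7 counts. The 2 sets did not overlap (log2 difference 3.33, SE 0.48, edgeR adjusted p = 0.00202). In heat replicates 3 to 6 it had 8.39, 6.15, 6.50 and 7.88 CPM, in control libraries 0.461, 2.92 and 4.59 CPM and in oxidative libraries 7.08, 9.46 and 11.3 CPM. FL81_19154 had 7.08, 5.35, 6.40 and 4.21 CPM in ancestor replicates 3 to 6 and 1 count each in replicates 7 and 8. The fitted log2 difference was 5.47 (SE 0.84, edgeR adjusted p = 0.00311), and the ratio of pooled counts was 62.9 with a 95% exact counting interval of 17.0 to 525. Heat replicates 3 to 6 had 5.68, 6.15, 6.73 and 7.13 CPM of this gene, close to the ancestor libraries with the same numbers. Without ancestor replicate 7 the log2 differences were 3.32 for FL81_18399 and 5.75 for FL81_19154, with an adjusted p of 0.0743 for both. The other 7 members called were FL81_16148, FL81_16391, FL81_20400, FL81_05888, FL81_01383, FL81_12337 and FL81_12929, with log2 differences of 1.61 to 3.02.

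In control, where the mean but not the split entered the choice of the members, replicates 3 to 6 were higher than replicates 1, 2, 7 and 8 for 2 members, or 2.20% against 0.508% of all genes, with no lower call in edgeR, DESeq2 or limma-voom (1 lower in edgeR at an unadjusted p under 0.05). The median log2 difference was 0.34 against -0.05 over all genes. The count was 7 without control replicate 1, 4 without replicate 2 or 7, and 1 without replicate 4, 5, 6 or 8. The result depended on which control libraries were the reference. Against control replicates 7 and 8 alone, 16 members were higher, 17.6% against 4.35% of all genes, and 0 were lower (5.58% of all genes; 1 lower at an unadjusted p under 0.05), with a median of 0.47. Against control replicates 1 and 2 alone, 1 member was higher, 1.10% against 0.233% of all genes, with a median of 0.15. Both of these splits were chosen after the data were seen. The same counts were taken, also after the data were seen, over a list that used no control library, the genes that met the heat criteria alone (135 of them tested). Of these, 9 were higher against replicates 1, 2, 7 and 8 (6.67%), 31 against replicates 7 and 8 (23.0%) and 1 against replicates 1 and 2 (0.741%), and 0 were lower in each (1, 1 and 6 at an unadjusted p under 0.05 in edgeR; the other tools were not run on this list). Control replicates 1 to 6 were all above 7 and 8 for 56 of 98 members, against 35.0% of all genes.

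The 2 members called in control were FL81_15921 and FL81_24156. FL81_15921 had 27.2, 18.4, 19.1 and 19.2 CPM in control replicates 3 to 6 and 10.9, 5.53, 5.89 and 4.61 CPM in replicates 1, 2, 7 and 8. These sets did not overlap (log2 difference 1.59, SE 0.25, edgeR adjusted p = 0.00303). It had 25.4, 36.4, 28.8 and 26.7 CPM in heat replicates 3 to 6 and 7.16 to 11.4 CPM in the other heat libraries, so that control replicates 4, 5 and 6 lay between these sets and control replicate 3 lay above heat replicates 3 and 6. The ancestor libraries held 5.81, 13.4 and 19.8 CPM and the oxidative libraries 9.44, 11.1 and 14.2 CPM. FL81_24156 had 35.8, 33.0, 36.6 and 36.8 CPM in control replicates 3 to 6 and 14.0 to 28.2 CPM in the other control libraries (log2 difference 0.76, SE 0.17, edgeR adjusted p = 0.0440). Its heat replicates 3 to 6, at 106, 97.5, 95.9 and 95.7 CPM, were above every other library. The call for FL81_24156 was lost without control replicate 4, 5, 6 or 8 (adjusted p = 0.0937, 0.141, 0.153 and 0.197), where the log2 difference was 0.77, 0.75, 0.69 and 0.67.

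In the oxidative population, where replicates 3 to 6 can be set against replicates 1 and 2, no member passed at an adjusted p of 0.05 in edgeR, DESeq2 or limma-voom. In edgeR 0 members were higher and 1 lower at an unadjusted p under 0.05, and 0.0% of all genes passed in either direction. The members' median was 0.06 against 0.02 over all genes. The members' share of gene counts, 1.20% ± 0.0352 (SD, n = 6), had the smallest SD of the 4 populations. A comparison of these medians between populations was not tested.

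The share of reads outside genes was fitted as a slope in the same 20 libraries, with population as a term. At an adjusted p of 0.05 in edgeR, 7 of 91 members rose with it, or 7.69% against 4.53% of all genes, and 0 fell, against 8.86% of all genes. At an unadjusted p under 0.05, 3 members fell, and DESeq2 and limma-voom called none lower. The members that rose were FL81_04654, FL81_15445, FL81_04997, FL81_20400, FL81_04475, FL81_18302 and FL81_16391, by 0.11 to 0.18 log2 units per percentage point. The members' median slope was 0.02 against 0.01 over all genes. Over the list chosen by the heat criteria alone, taken after the data were seen, 8 of 135 rose (5.93%) and 0 fell. At an unadjusted p under 0.05 in edgeR, 5 of that list fell, and its median slope was 0.0116 against 0.00545 over all genes. The count of 7 members moved with single libraries, and so did the count over all genes. No member and no gene passed without ancestor replicate 5 or 8 or control replicate 7. No member passed without control replicate 1 (0.633% of all genes higher) or 3 (0.0%). The count was 2 without ancestor replicate 3 (0.987% of all genes), 3 without control replicate 2 (1.45%), 4 without oxidative replicate 5 (2.45%) and 13 without control replicate 5 (8.98%). With library totals as the scaling, 26 members rose (25.4% of all genes) and 0 fell (2.36% of all genes). Without replicates 7 and 8 of both populations no member and none of all genes tested passed, and the members' median slope was -0.02. For the share of unaligned reads edgeR called 0 members in either direction (0.0% of all genes), with 28 higher and 5 lower at an unadjusted p under 0.05. DESeq2 called 14 higher (15.4% against 2.15% of all genes) and 1 lower (3.15% of all genes) there, and limma-voom none. The edgeR count higher with unaligned reads was 9 without ancestor replicate 4 (0.661% of all genes), 13 without ancestor replicate 8 (4.26%) and 3 without control replicate 6 (0.38%).

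Members also differed in which of the 4 heat libraries was highest, and 2 groups were taken out after their values were seen. In 6 members, FL81_21707, FL81_19472, FL81_17879, FL81_14356, FL81_21706 and FL81_21704, heat replicate 3 was at least 2 times each of replicates 4, 5 and 6. Their summed level was 4043, 716, 470.0 and 481 CPM in heat replicates 3, 4, 5 and 6. It was 199 and 199.8 CPM in heat replicates 1 and 2 and 50.0 and 95.4 CPM in replicates 7 and 8. One library thus held most of the counts of this group. In control, replicate 1 was the highest library for all 6 (18.2% of all tested genes and 28 of the 100 members), with a sum of 261 CPM, then replicate 4 with 122 CPM and the others with 24.9 to 65.6 CPM. The oxidative libraries held 316 to 384 CPM and the ancestor libraries 55.9 to 127 CPM. FL81_19472 varied most, with 1561, 206, 48.3 and 45.4 CPM in heat replicates 3, 4, 5 and 6 and 12.2 to 44.9 CPM in the other heat libraries. Its 58.0 CPM in control replicate 1 exceeded heat replicates 5 and 6.

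The second group held 15 members in which heat replicate 5 was at least 1.3 times each of replicates 3, 4 and 6, among them FL81_24900, FL81_04654, FL81_18302, FL81_15445, FL81_04997 and the pair FL81_04475 and FL81_04476. They summed to 255, 327, 642 and 356 CPM in heat replicates 3, 4, 5 and 6, and to 126, 64.0, 29.2 and 41.7 CPM in heat replicates 1, 2, 7 and 8. In the ancestor they were highest in replicate 5, at 129.7 CPM against 23.4 to 67.6 CPM in the other libraries. Replicate 5 was the highest ancestor library for 11 of the 15, or 73.3%. The same was true of 53.8% of all tested genes and of 44 of the 100 members. In control they were highest in replicates 1 and 2, at 114 and 112 CPM, against 20.6 to 86.2 CPM in the others. Replicate 2 was the highest control library for 6 of the 15, for 48.2% of all tested genes and for 25 of the 100 members. The oxidative libraries held 74.7 to 173 CPM. Of the 7 members that rose with the share of reads outside genes (4.53% of all genes rose), FL81_04654, FL81_15445, FL81_04997, FL81_04475 and FL81_18302 belonged to this group. Ancestor replicate 5 had the highest share of such reads in the ancestor, 22.5%, and without it no member and no gene passed. Nothing is read from this overlap. Heat replicate 5 had the lowest share of such reads among heat replicates 3 to 6. A link between this share and the levels of the group in heat was not tested.

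**Figure D5:**
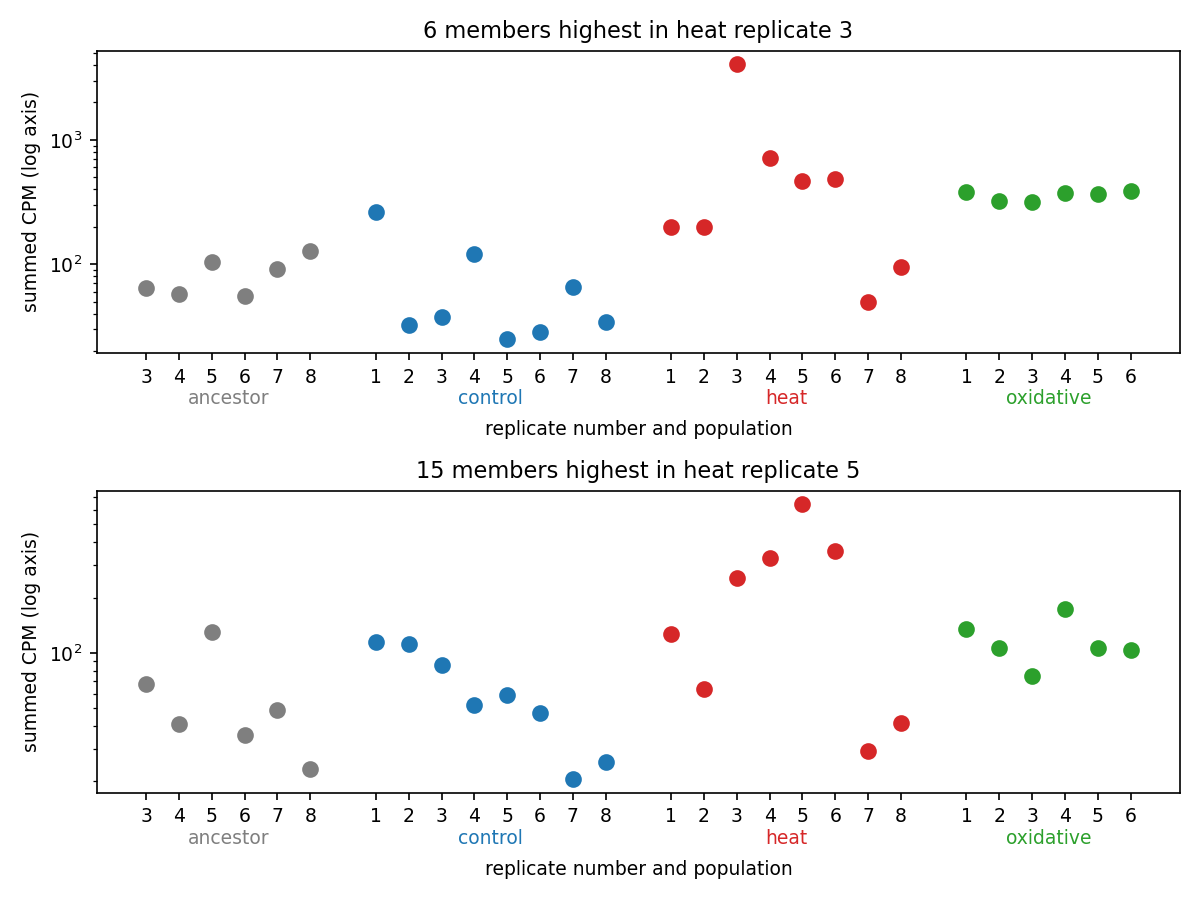
Summed CPM on a log axis of 6 members highest in heat replicate 3 (top) and 15 members highest in heat replicate 5 (bottom), one point per library. The top group reaches 4043 CPM in heat replicate 3 and 470.0 to 716 CPM in heat replicates 4 to 6; the bottom group reaches 642 CPM in heat replicate 5 and 129.7 CPM in ancestor replicate 5.

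Some members stood next to each other in identifier number. There were 5 pairs of consecutive numbers, which held 10 members: FL81_04475 and FL81_04476, FL81_05336 and FL81_05337, FL81_06792 and FL81_06793, FL81_21706 and FL81_21707, and FL81_22658 and FL81_22659. With a distance of up to 3 numbers, 13 members had another member close by. The files give no coordinates, so whether consecutive numbers are neighbours on a chromosome is not known here. Near-identical copies would lose reads that aligned to more than 1 place, and such reads made up 2.93% to 3.32% of reads in heat replicates 3 to 6 and 2.18% to 3.36% in the other heat libraries.

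The 2 genes outside the set whose pattern was most like the members' median pattern were FL81_17330 and FL81_19929, each with a Spearman correlation of 0.91 over the 28 libraries, which share depth and scaling. FL81_17330 missed only the ratio to the other heat libraries. FL81_19929 had 412, 421, 346 and 420.1 CPM in heat replicates 3 to 6 and 189 to 315 CPM in the other heat libraries, and missed both ratios, at 1.70 and 1.67.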

How the data were processed

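The authors deposited a table of raw counts for each of 28 libraries, with 25337 gene identifiers and 5 summary lines. The submitters' processing notes name GSNAP for alignment and HTSeq for counting; no build, annotation or strand setting is stated (not given in the sources used here), so overlapping genes on opposite strands may share reads. Summary lines entered neither library sizes nor tests; reads outside genes made up 10.6% to 39.1% of a library and unaligned reads 15.7% to 37.5%.

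Levels are CPM of plain gene counts. Tests used edgeR 4.0.16 in R 4.3.3 on the deposited counts, with filterByExpr (minimum count 10), TMM scaling and the quasi-likelihood test, adjusted by Benjamini-Hochberg over all genes at 0.05. One fit held all 28 libraries with a coefficient per population. Others held the 20 libraries outside heat, with population by number class or population and a share of reads. The tests were tried on simulated counts with known changes. Alternatives were RLE scaling, library totals only, no filter, DESeq2 1.42.0, limma-voom (limma 3.58.1), other member criteria, single libraries left out, covariates and replicate blocks. The members and lists were chosen with earlier results of these data known. Members were named by fixed places in the tables: highest mean, highest and lowest ratio, nearest genes outside, and the largest called rise and fall in each test. FL81_06792, FL81_18528, FL81_19472, the members at either end of the oxidative ratios, the identifier pairs, the other called members and those of the groups led by heat replicates 3 or 5 were named after their values were seen. A list of cell type and stress genes could not be used, since no identifier carried a name.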

Additional observations from a re-analysis of the deposited data

Results flagged for a closer look

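Among 72 sets of 4 to 8 libraries examined for the named genes and for the summed level of the members, 7 held a library far from the others by Dixon's criterion; chance gives about 1 in 20. In heat replicates 3 to 6, FL81_05911 had 617 CPM in replicate 3 against 551 to 553 CPM in the others. FL81_22979 had 39.5 CPM in replicate 3 against 48.1 to 48.7 CPM. FL81_19929, which is not a member, had 346 CPM in replicate 5 against 412 to 421 CPM. In control, FL81_24900 had 1.43 CPM in replicate 1, from 3 counts, against 0 to 0.553 CPM, and FL81_19154 had 4.97 CPM in replicate 2 against 0.276 to 2.46 CPM. In the ancestor, FL81_17394 had 91.8 CPM in replicate 8 against 37.1 to 53.7 CPM. In the oxidative population, FL81_09950, which is not a member, had 132 CPM in replicate 1 against 148 to 156 CPM.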

How the results depend on the processing

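The member list changed with its own criteria: 189 genes at 1.5 times (all 100 members among them), 52 at 3 times and 33 at 4 times. With TMM-scaled CPM 131 genes met the criteria, 98 of them members, and with 1 heat or control library left out 93 to 118. For oxidative against ancestor, higher calls were 11 with the TMM-scaled list (2.38% of all genes), 11 with library totals (4.03%), 17 with only the 2 populations in the fit (3.39%) and 1 with unaligned reads as covariate (9.05%), where lower calls were 10 (10.2%) and the members' median turned negative. With single libraries left out they were 3 to 7 higher and 4 to 4 lower. Without replicates 7 and 8, 7 members were higher (1.76% of all genes) and 6 lower (2.6%).

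For control replicates 3 to 6, higher calls were 5 with the TMM-scaled list (0.508% of all genes), 8 with DESeq2 (1.29%), 1 with limma-voom (0.595%), 1 against replicates 1 and 2 (0.233%), 16 against replicates 7 and 8 (4.35%), and 1 to 7 (lower 0 to 1) with single libraries left out. Over the list chosen by the heat criteria alone they were 9, 1 and 31 for these 3 references, in the order all 4, 1 and 2, and 7 and 8. For ancestor replicates 3 to 6 they were 19 with DESeq2 (1.36% of all genes) and 0 to 13 with single libraries left out (0.0171% to 0.839%). For reads outside genes, higher slopes were 12 with the TMM-scaled list (lower 1), 26 with library totals (25.4% of all genes), 11 with limma-voom (7.85%), 0 without replicates 7 and 8 (0.0%), and 0 to 13 (lower 0 to 4) with single libraries left out; with the number class added, 1 was lower. For unaligned reads, DESeq2 called 14 higher (2.15% of all genes) and 1 lower (3.15%), library totals gave 3 lower (7.47%), and single libraries left out gave 0 to 13 higher and 0 to 2 lower. The oxidative split gave 0 calls throughout. The cause of these shifts was not tested, and each depth limit follows from 3 counts being up to 2.13 CPM.

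Replicate numbers did not pair ancestor and oxidative libraries: deviations of same-numbered libraries correlated at -0.25, -0.34, -0.02 and 0.19 for numbers 3 to 6. Other pairs of populations differed from this. Between control and heat the correlations were 0.37, 0.23, -0.24, 0.20, 0.11, 0.31, 0.67 and 0.58 for numbers 1 to 8. Between ancestor and heat they were -0.15, 0.31, 0.54, 0.27, -0.10 and 0.44 for numbers 3 to 8. With the replicate block, 7 members were higher and 4 lower in the fit of 28 libraries (2.63% and 3.02% of all genes), 10 higher and 5 lower in replicates 3 to 6 alone (0.418% and 0.327%), and 0 slopes of members or of all genes on reads outside genes or unaligned reads passed.

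Of 143 alternatives for 8 results on single members, 130 kept the call and direction, 13 lost the call and 0 reversed. Those lost were FL81_03957 (1.99) and FL81_12337 (1.98) with unaligned reads as covariate, FL81_24498 (-3.18) with limma-voom, FL81_19154 and FL81_18399 without ancestor replicate 7, and 8 for FL81_24156.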
